A study of Homo sapiens with 8 samples.

Results

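The genes described here are 44 genes of the integrated stress response and of amino acid supply, among 57905 genes in a table of RNA sequencing counts from 8 libraries of human prostate cancer cells. They were taken from a list of names, covering the ATF4 pathway, amino acid transport and synthesis, and tRNA charging, and all 44 were found in the table. The list was chosen with earlier results of these data known. EnzaR is a prostate cancer line resistant to enzalutamide, an antiandrogen drug, and its medium held 10 uM of the drug. EnzaR cells received 40 nM of siRNA against YAP1 (siYAP1, 2 libraries) or of control siRNA (siNC, 2 libraries) for 48 h. LNCaP is named by the labels and known as a prostate cancer line whose growth depends on androgen. No enzalutamide is listed for the LNCaP libraries. For 48 h LNCaP cells were given extracellular vesicles (EVs) shed by EnzaR cells depleted of YAP1 (EV-siYAP1), vesicles of EnzaR cells depleted of COUP-TFII (EV-siCII), vesicles of EnzaR cells given control siRNA (EV-siNC), or a vehicle without vesicles (control), with 1 library a group. YAP1 is a transcriptional co-activator held in check by Hippo kinases, and NR2F2 is the gene of COUP-TFII, an orphan nuclear receptor. The labels give the LNCaP cells no siRNA treatment of their own. Whether the replicates of EnzaR came from separate cultures is not stated, so the p-values cover the spread among these libraries alone, and that spread may be technical. In bulk RNA, a change in the number of cells of one kind and a change in RNA per cell cannot be told apart.

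The integrated stress response slows general translation when a kinase phosphorylates the initiation factor eIF2, and under that condition the mRNA of the transcription factor ATF4 is translated more. GCN2 (EIF2AK4) senses uncharged tRNA when amino acids are short, and PERK (EIF2AK3) senses unfolded protein in the endoplasmic reticulum. ATF4 pairs with C/EBP proteins and switches on amino acid transporters, serine and asparagine synthesis, aminoacyl-tRNA synthetases and feedback genes. Much of the control of ATF4 lies in translation, which mRNA levels do not show.

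ATF4 and its C/EBP partners bind composite DNA elements with the letters TGATGNAA. These letters were searched on both strands of the RefSeq promoters of GRCh38.p14, each 300 bases long, from 250 bases before to 50 bases after a start site. They occurred in 10 of the 39 member promoters that could be matched (25.6%) and in 1270 of all 35116 promoters (3.62%). The list was drawn to cover the ATF4 pathway, so a higher share among members is no separate result. Only 1 promoter was kept per member, while every promoter was counted in the share of all promoters. Promoters with a match belonged to 5 of the 14 matched members that were higher in siYAP1 libraries, 1 of the 3 that were lower and 4 of the 22 that did not pass the test. Those not printed were AARS1, ATF3, IARS1 and SLC7A1. The 6 promoters printed are those of members that passed the test in EnzaR cells, read 5′ to 3′ on the strand of the gene, and capitals mark the match. It lies on the strand of the gene in ASNS and NARS1 and on the other strand in CHAC1, SLC3A2, MARS1 and CARS1, where it reads as the reverse complement. A match describes letters only, and binding was not measured. The windows are CHAC1 at chr15:40953221-40953520 (+ strand), ASNS at chr7:97872359-97872658 (- strand), SLC3A2 at chr11:62881449-62881748 (+ strand), MARS1 at chr12:57487818-57488117 (+ strand), CARS1 at chr11:3057374-3057673 (- strand) and NARS1 at chr18:57621787-57622086 (- strand).
CHAC1: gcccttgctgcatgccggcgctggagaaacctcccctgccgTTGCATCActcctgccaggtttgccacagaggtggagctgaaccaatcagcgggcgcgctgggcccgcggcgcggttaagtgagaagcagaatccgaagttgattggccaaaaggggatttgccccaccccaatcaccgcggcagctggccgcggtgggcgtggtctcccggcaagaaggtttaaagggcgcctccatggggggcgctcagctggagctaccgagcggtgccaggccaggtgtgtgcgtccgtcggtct
ASNS: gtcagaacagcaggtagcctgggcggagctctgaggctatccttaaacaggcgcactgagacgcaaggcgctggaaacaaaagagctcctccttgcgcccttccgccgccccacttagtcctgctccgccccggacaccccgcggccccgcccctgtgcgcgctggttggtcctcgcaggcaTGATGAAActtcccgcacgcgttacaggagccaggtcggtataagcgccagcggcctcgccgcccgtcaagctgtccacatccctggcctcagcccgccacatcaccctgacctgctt
SLC3A2: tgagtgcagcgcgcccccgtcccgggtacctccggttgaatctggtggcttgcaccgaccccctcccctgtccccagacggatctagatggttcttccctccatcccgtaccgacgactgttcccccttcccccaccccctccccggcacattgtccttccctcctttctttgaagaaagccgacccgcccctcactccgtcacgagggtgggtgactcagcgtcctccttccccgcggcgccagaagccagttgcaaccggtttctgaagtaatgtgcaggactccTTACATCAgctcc
MARS1: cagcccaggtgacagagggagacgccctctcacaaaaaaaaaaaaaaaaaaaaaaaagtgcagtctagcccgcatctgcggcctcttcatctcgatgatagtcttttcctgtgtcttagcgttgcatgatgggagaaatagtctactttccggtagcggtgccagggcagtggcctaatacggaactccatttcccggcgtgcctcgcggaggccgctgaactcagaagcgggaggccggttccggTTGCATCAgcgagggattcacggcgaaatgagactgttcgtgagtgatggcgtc
CARS1: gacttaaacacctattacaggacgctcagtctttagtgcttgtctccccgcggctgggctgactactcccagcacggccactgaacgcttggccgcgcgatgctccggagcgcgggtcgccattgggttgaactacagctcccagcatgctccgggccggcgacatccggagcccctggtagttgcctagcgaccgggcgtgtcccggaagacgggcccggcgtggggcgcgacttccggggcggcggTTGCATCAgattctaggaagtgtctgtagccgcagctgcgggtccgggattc
NARS1: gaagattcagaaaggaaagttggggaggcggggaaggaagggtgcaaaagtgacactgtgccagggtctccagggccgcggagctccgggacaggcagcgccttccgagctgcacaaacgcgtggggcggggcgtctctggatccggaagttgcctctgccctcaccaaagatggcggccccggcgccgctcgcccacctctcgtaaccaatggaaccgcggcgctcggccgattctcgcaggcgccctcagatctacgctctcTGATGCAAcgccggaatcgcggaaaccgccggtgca

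The matches start 209 bases before the start site in CHAC1, 68 before it in ASNS, 4 before it in MARS1 and 2 before it in CARS1, and after the start site in SLC3A2 and NARS1, at positions 37 and 14. CHAC1, MARS1, CARS1 and NARS1 carry the same 8 letters, TGATGCAA, read on the strand that holds the match. ASNS carries TGATGAAA and SLC3A2 TGATGTAA.

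Libraries held between 16682669 and 18248939 counts. The 44 members took 0.877% and 0.903% of counts in siYAP1 libraries, 0.82% and 0.823% in siNC libraries and 0.852% to 0.884% in LNCaP libraries. YAP1 was at 5.79 and 7.07 CPM (library-scaled counts, using the trimmed mean of M-values, TMM) in siYAP1 libraries, against 57.4 and 47.6 CPM in siNC libraries. NR2F2 did not pass the test there (edgeR adjusted p = 0.874). All 10 luminal prostate markers, KLK3 among them, were present in both lines, while the basal markers KRT5 and TP63 and the immune markers PTPRC and CD3E were at 0 in every library. The lines differed in other markers: KLK3 averaged 1240 CPM in EnzaR and 43.9 CPM in LNCaP libraries, and VIM 0.947 CPM in EnzaR and 276 CPM in LNCaP libraries. LNCaP is known for strong KLK3 and little VIM, so in these markers the libraries labelled LNCaP go against that label. The identity of the culture was not tested, and LNCaP is used throughout as the label gives it.

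Levels per exonic length of a gene were read in FPKM, which are counts scaled by that length and library size, as the authors deposited them. Member levels spanned a wide range in EnzaR cells. PYCR1, which makes proline, had the highest mean, with 244.65 to 279.18 FPKM over the 4 EnzaR libraries. PHGDH, the first enzyme of serine synthesis, followed with 224.09 to 257.8 FPKM, a range that overlaps that of PYCR1. ATF4 (161.98 to 195.13 FPKM) and the stress-induced chromatin factor gene NUPR1 (126.13 to 185.29 FPKM) came next and also overlapped each other. In all, 6 members had a mean over 100 FPKM, the others being AARS1 and SHMT2, and 9 had a mean under 5 FPKM. The kinase gene EIF2AK3 was among the lowest, at 1.05 to 1.81 FPKM, and VLDLR, a lipoprotein receptor, was lowest at 0.56 to 0.7 FPKM. No member was near the limit of detection, with at least 95 counts in each library.

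The comparison of siYAP1 with siNC libraries asked what the loss of YAP1 does to transcripts of resistant cells. Of the 44 members, all of which passed the filter on low counts, 16 were higher and 3 lower in siYAP1 libraries (edgeR quasi-likelihood test, Benjamini-Hochberg adjusted p under 0.05 over 14948 genes). That is 36.4% and 6.82% of the members, beside 5.83% of all genes tested that were higher and 6.22% that were lower. As the list was chosen with earlier results of these data known, these shares describe the members and are no test against all genes. Among the 8845 tested genes with a mean of 10 CPM or more, 9.28% were higher and 8.38% lower. The members that rose did so by 1.24-fold to 1.75-fold, and their groups did not overlap. Over all 44 members 35 log2 fold changes were positive, with a median of 0.206, against a median of -0.0253 over all genes tested. Both siYAP1 libraries lay above both siNC libraries in 27 members (27.5% of all genes tested) and below both in 6 (31% of all genes tested). The calls were spread over all role groups, with 3 higher and 2 lower among synthetases and tRNA export, 4 higher among transporters and 3 higher each among transcription factors and effectors. The 3 members that fell were a kinase, a tRNA synthetase and a tRNA exporter.

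**Figure D1:**
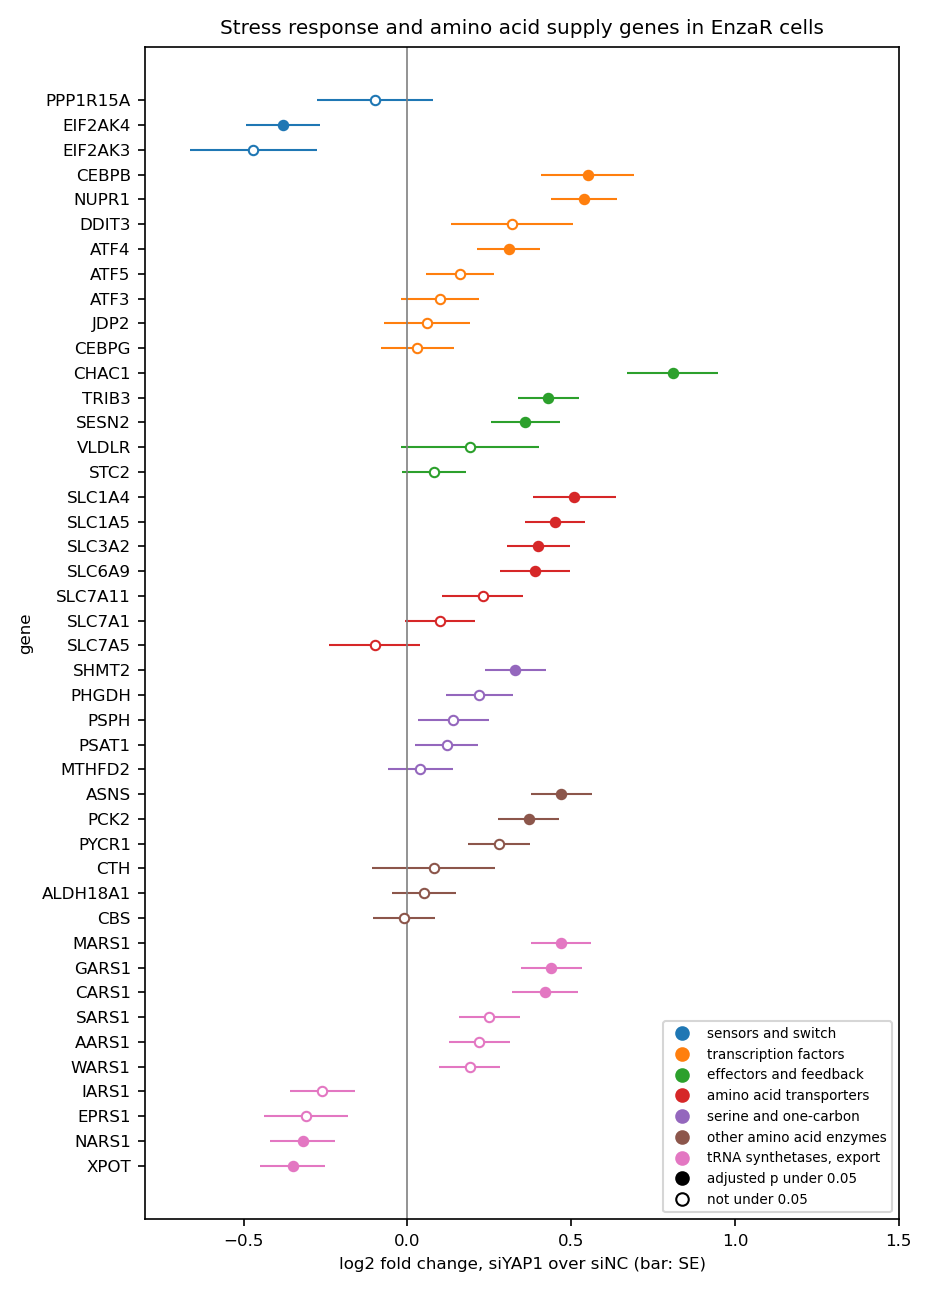
Log2 fold change of each of the 44 members, siYAP1 over siNC libraries of EnzaR cells (x axis, bars are SE of the edgeR fit, n = 2 libraries a group), with genes down the page by role. Filled points passed an adjusted p of 0.05: 16 lie right of 0 and 3 left of it, and CHAC1 is farthest right at 0.81.

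These results depended on which libraries were used. Without EnzaR_siYAP1 replicate 1, no member passed the threshold in either direction (edgeR). The same fit called 15 genes higher and 11 lower over all genes. The 16 members then still had positive log2 fold changes, with a median of 0.423, in a fit that shares the other 3 libraries. Without EnzaR_siNC replicate 1, 7 members were higher and 2 lower, without EnzaR_siNC replicate 2 the numbers were 10 and 0, and without EnzaR_siYAP1 replicate 2 they were 12 and 1. Scaling by library totals alone gave 8 members higher and 4 lower, beside 291 higher and 1416 lower of all 14948 genes. Over all genes 17% of calls were then higher, against 48.4% with TMM, and the median of all genes moved by -0.104 on the log2 scale. The median of the members lay 0.231 above that of all genes under both scalings. A change of scaling moves all genes by nearly the same amount, so this gap could hardly change.

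The sensors and the phosphatase subunit that switch the response on and off were not higher. EIF2AK4, the amino acid sensor GCN2, was at 38.2 and 43.3 CPM in siYAP1 libraries, against 51.1 and 55 CPM in siNC libraries. It fell by 0.38 on the log2 scale (SE 0.114, edgeR adjusted p = 0.0355), with no overlap between groups. EIF2AK3, the kinase PERK, had 6.58 ± 0.765 CPM in siYAP1 and 9.16 ± 0.649 CPM in siNC libraries (SD, n = 2 each) and did not pass (edgeR adjusted p = 0.11). PPP1R15A (GADD34), which brings a phosphatase to eIF2 and so ends the response, had 9.44 ± 0.5 CPM in siYAP1 and 10.1 ± 0.768 CPM in siNC libraries (SD, n = 2 each) and did not pass (edgeR adjusted p = 0.751).

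Of the 8 transcription factors 3 rose, and all 8 log2 fold changes were above 0. ATF4 lies on chromosome 22 (39915700 to 39918691, hg19). It was at 521 and 487 CPM in siYAP1 libraries, against 388 and 423 CPM in siNC libraries. Both siYAP1 libraries were above both siNC libraries, by a log2 fold change of 0.31 (SE 0.0962, edgeR adjusted p = 0.0386). NUPR1, on chromosome 16 (28548606 to 28550495, hg19), had 216 and 186 CPM in siYAP1 libraries, against 132 and 144 CPM in siNC libraries, a log2 fold change of 0.54 (SE 0.101, edgeR adjusted p = 0.00331). CEBPB, a C/EBP partner of ATF4, was at 47.6 and 49.5 CPM in siYAP1 libraries, against 39.4 and 26.8 CPM in siNC libraries. The siNC libraries of CEBPB lay farther apart than the siYAP1 libraries, and its log2 fold change was 0.55 (SE 0.142, edgeR adjusted p = 0.0193).

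The other factors did not pass the test. DDIT3 encodes CHOP, which drives cell death under lasting stress, and had a log2 fold change of 0.32 (SE 0.186, edgeR adjusted p = 0.27). Its reads are uncertain, since the gene overlaps MARS1 on the other strand, whose mean count was 1367.9% of its own, and the strand setting of counting is not given in the sources used here. ATF5 had 0.16, ATF3 0.10, JDP2 0.06 and CEBPG 0.03 on the log2 scale. ATF5 is uncertain for the same reason, as it overlaps NUP62.

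Of the 5 effectors and feedback genes, 3 rose. CHAC1, which breaks down glutathione and lies on chromosome 15 (41245160 to 41248710, hg19), had 36 and 39.2 CPM in siYAP1 libraries, against 18.7 and 24.4 CPM in siNC libraries. The groups stood clear of each other, with a log2 fold change of 0.81 (SE 0.138, edgeR adjusted p = 0.00202). TRIB3, a pseudokinase that restrains ATF4 and AKT, was at 183 and 175 CPM in siYAP1 libraries, against 132 and 134 CPM in siNC libraries, with a log2 fold change of 0.43 (SE 0.0936, edgeR adjusted p = 0.00879). SESN2, a leucine sensor that restrains mTORC1, was at 68.4 and 74.9 CPM in siYAP1 libraries, against 56.8 and 54.7 CPM in siNC libraries. Its log2 fold change was 0.36 (SE 0.105, edgeR adjusted p = 0.0315). STC2, a secreted glycoprotein, and VLDLR did not pass, with log2 fold changes of 0.08 and 0.19.

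Of 7 amino acid transporters 4 rose. SLC1A5 (ASCT2) carries glutamine, and it was at 245 and 244 CPM in siYAP1 libraries, against 179 and 180 CPM in siNC libraries. The replicates of SLC1A5 were close in both groups, and its log2 fold change was 0.45 (SE 0.0919, edgeR adjusted p = 0.00594). SLC3A2 (CD98), the heavy chain shared by several exchangers, was at 336 and 308 CPM in siYAP1 libraries, against 237 and 253 CPM in siNC libraries (log2 fold change 0.40, SE 0.0951, edgeR adjusted p = 0.0141). SLC1A4 (ASCT1), which carries serine and alanine, was at 30 and 31.5 CPM in siYAP1 libraries, against 21 and 22.1 CPM in siNC libraries (log2 fold change 0.51, SE 0.127, edgeR adjusted p = 0.0158). SLC6A9 (GLYT1), a glycine carrier, was at 70.5 and 75.8 CPM in siYAP1 libraries, against 52.9 and 59.1 CPM in siNC libraries (log2 fold change 0.39, SE 0.107, edgeR adjusted p = 0.0265). None of these 4 overlapped between groups, and reads of SLC6A9 are uncertain where it overlaps CCDC24. The light chains that pair with SLC3A2 did not pass: SLC7A11 (xCT), which imports cystine, had a log2 fold change of 0.23, and SLC7A5 (LAT1), which imports leucine, had -0.10. The arginine and lysine carrier gene SLC7A1 had 0.10.

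In serine and one-carbon metabolism 1 of 5 members rose. SHMT2, which turns serine into glycine in mitochondria, was at 616 and 601 CPM in siYAP1 libraries, against 483 and 484 CPM in siNC libraries, with no overlap and a log2 fold change of 0.33 (SE 0.0937, edgeR adjusted p = 0.028). Reads of SHMT2 are uncertain where it overlaps NDUFA4L2 on the other strand, whose mean count was 15.1% of its own. PHGDH, PSPH and PSAT1, the enzymes that make serine from a glycolytic intermediate, had log2 fold changes of 0.22, 0.14 and 0.12 and did not pass. MTHFD2, which carries the one-carbon unit further in mitochondria, had 0.04.

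Among 6 other enzymes 2 rose. ASNS, asparagine synthetase on chromosome 7 (97481430 to 97501854, hg19), had 208 and 199 CPM in siYAP1 libraries, against 148 and 145 CPM in siNC libraries. The groups were well apart, with a log2 fold change of 0.47 (SE 0.093, edgeR adjusted p = 0.0045). PCK2, the mitochondrial phosphoenolpyruvate carboxykinase, was at 287 and 289 CPM in siYAP1 libraries, against 217 and 228 CPM in siNC libraries (log2 fold change 0.37, SE 0.0925, edgeR adjusted p = 0.0162). PYCR1 lay just outside the threshold, with 835 ± 23.3 CPM in siYAP1 and 687 ± 6.87 CPM in siNC libraries (SD, n = 2 each, log2 fold change 0.28, edgeR adjusted p = 0.0574). ALDH18A1, the step before PYCR1 in proline synthesis, had 0.05, and CBS and CTH, which make cysteine from homocysteine, had -0.01 and 0.08.

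The 9 aminoacyl-tRNA synthetases and the tRNA exporter XPOT moved in both directions. MARS1, for methionine, was at 292 and 291 CPM in siYAP1 libraries, against 210 and 209 CPM in siNC libraries (log2 fold change 0.47, SE 0.0918, edgeR adjusted p = 0.00426). GARS1, for glycine, was at 317 and 328 CPM in siYAP1 libraries, against 236 and 240 CPM in siNC libraries (log2 fold change 0.44, SE 0.0922, edgeR adjusted p = 0.00662). CARS1, for cysteine, was at 103 and 93.6 CPM in siYAP1 libraries, against 74.5 and 72.9 CPM in siNC libraries (log2 fold change 0.42, SE 0.101, edgeR adjusted p = 0.0148). All 3 were higher in both siYAP1 libraries than in either siNC library. NARS1, for asparagine, was at 128 and 138 CPM in siYAP1 libraries, against 156 and 175 CPM in siNC libraries (log2 fold change -0.32, SE 0.0984, edgeR adjusted p = 0.041). XPOT, which exports tRNA from the nucleus, was at 91.8 and 102 CPM in siYAP1 libraries, against 121 and 127 CPM in siNC libraries (log2 fold change -0.35, SE 0.0989, edgeR adjusted p = 0.0271). Both fell in each siYAP1 library relative to each siNC library. SARS1, AARS1 and WARS1, for serine, alanine and tryptophan, had log2 fold changes of 0.25, 0.22 and 0.19, and IARS1 and EPRS1, for isoleucine and for glutamate and proline, had -0.26 and -0.31; none of these passed.

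**Figure D2:**
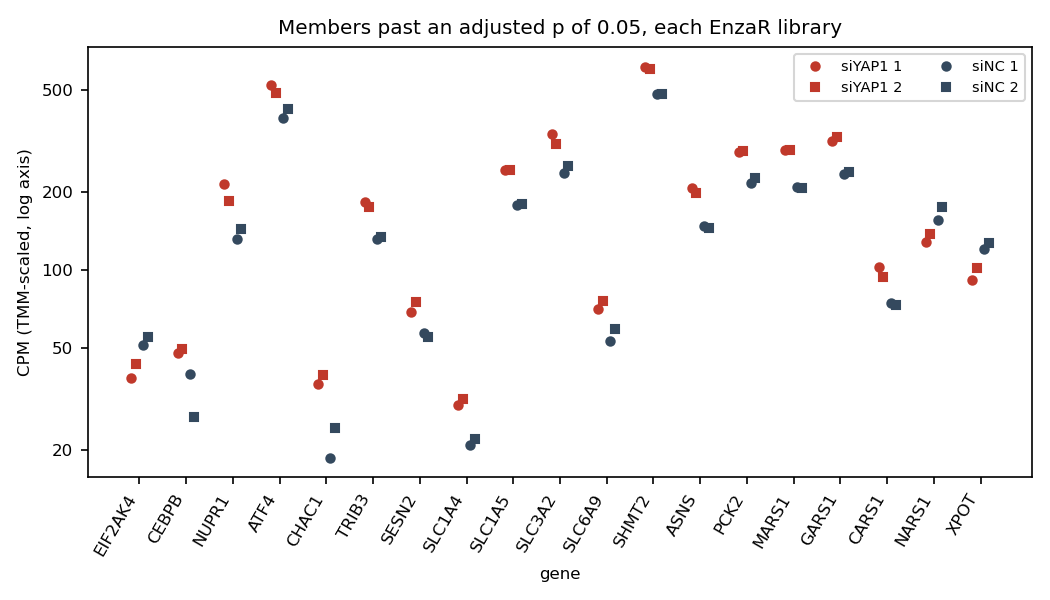
CPM on a log axis of the 19 members past an adjusted p of 0.05 in each EnzaR library, with the siYAP1 libraries (red) left of the siNC libraries (dark) and replicate 1 as circles, replicate 2 as squares. The groups do not overlap in any of the 19, and the siNC libraries of CEBPB lie far apart, at 39.4 and 26.8 CPM.

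The log2 fold change of a member went with the GC content of its transcripts, as it did for genes in general. Spearman's rho with GC content was 0.484 over the 44 members and 0.481 over 14547 tested genes, which share libraries and are not independent. Ratios between replicates of 1 group had smaller values. For siYAP1 replicate 2 over replicate 1 rho was -0.402 over 39 members and -0.178 over 8742 genes. For siNC replicate 2 over replicate 1 it was -0.0694 and 0.0295. Of the 10 members with a GC content under 45% (a limit chosen after the values were seen), 0 were higher and 3 lower at an edgeR adjusted p under 0.05. Of the 34 at or above it, 16 were higher and 0 lower. Among all tested genes at or above that limit 8.02% were higher and 3.05% lower, and among those under it 0.277% were higher and 15% lower. The part of GC content in the counts of members was not tested, but a fit with a correction for GC content and exonic length gives values beside them.

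With that correction 9 of 44 members were higher and 0 lower (edgeR adjusted p under 0.05), 20.5% of the members beside 1.83% of all genes tested that were higher and 1.52% that were lower. The limit from the choice of the list holds for these shares too. ASNS, GARS1, MARS1, CARS1, SLC1A4, SLC1A5, SLC3A2 and CHAC1 passed with and without the correction. Their corrected log2 fold changes were 0.63, 0.51, 0.48, 0.48, 0.53, 0.28, 0.34 and 0.53. SLC7A11, whose transcripts have the lowest GC content of the members at 38.6%, passed only with the correction, at 0.64. ATF4 did not pass with it, at 0.15 (edgeR adjusted p = 0.307, range over the alternatives 0.00373 to 0.5), nor did NUPR1 at 0.26, TRIB3 at 0.21, CEBPB at 0.21, PCK2 at 0.22, SLC6A9 at 0.25, SHMT2 at 0.22 and SESN2 at 0.19. XPOT, EIF2AK4 and NARS1 had corrected values of -0.02, -0.08 and -0.16. All 16 members that rose kept a positive value in each alternative that was run. They had passed the test on the same libraries with groups that did not overlap, so most alternatives could hardly change a sign.

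**Figure D3:**
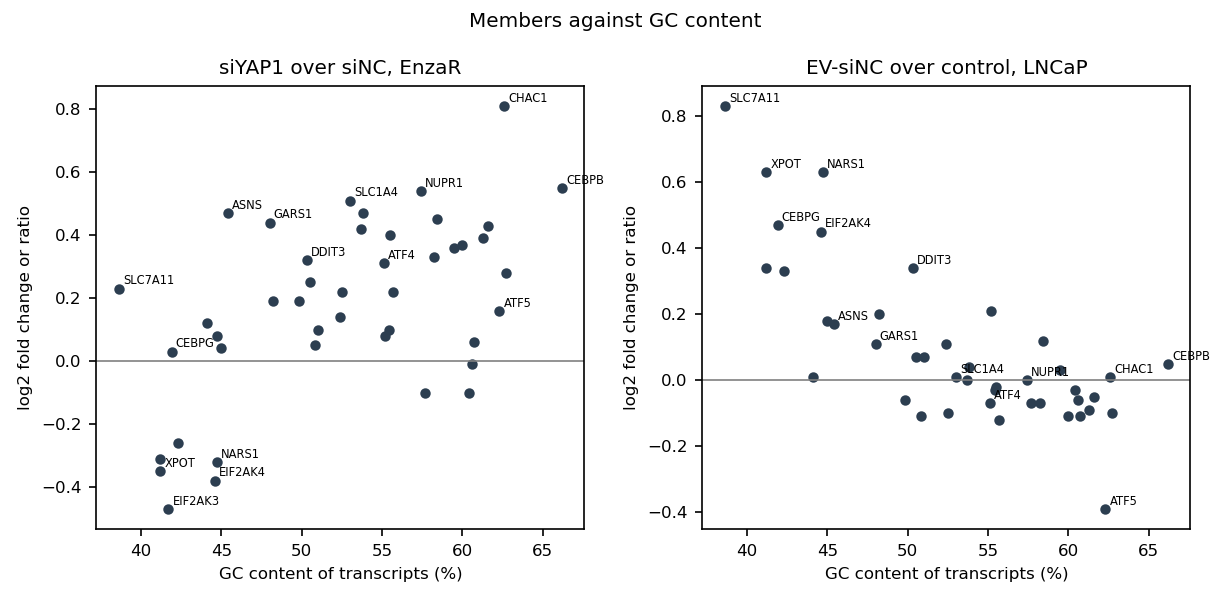
Log2 fold change of the members in EnzaR cells, siYAP1 over siNC (left), and log2 ratio in LNCaP cells, EV-siNC over control (right), against the GC content of their transcripts in percent. Each point is a gene; the left cloud goes up with GC content and the right one goes down.

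Other genes of the same machinery gave a mixed picture in EnzaR cells. Of 16 further genes known as ATF4 targets 13 could be tested, of which 4 were higher and 2 lower. Beside this list and those that follow, 5.83% of all genes tested were higher and 6.22% lower. EIF4EBP1, a repressor of cap-dependent translation, rose by 0.57 on the log2 scale, ADM2 by 0.41, the mTORC1 inhibitor gene DDIT4 by 0.31 and the amino acid carrier gene SLC43A1 by 0.31. SLC38A1, a glutamine carrier, fell by 0.53 and KLHL24 fell by 0.78. Among 11 other cytosolic synthetases 1 was higher (VARS1, 0.32) and 1 lower, and their median was -0.108. Of 17 mitochondrial synthetases 1 was higher (FARS2, 0.41), with a median of -0.0079. Of 11 genes of eIF2, its exchange factor eIF2B and other eIF2 kinases and phosphatase subunits, 0 passed the edgeR test or DESeq2, 3 were lower and 0 higher at an unadjusted p under 0.05 (edgeR), and 4 log2 fold changes were positive. Of 16 targets of ATF6 and XBP1, which answer unfolded protein in the endoplasmic reticulum, 2 were higher and 2 lower. PDIA4, a disulfide isomerase, rose by 0.56 and the chaperone partner gene SDF2L1 by 0.37, while the co-chaperone gene DNAJB9 fell by 0.66 and EDEM1, of glycoprotein disposal, fell by 0.40. With the correction for GC content and length 1 of the 13 ATF4 targets was higher (1.83% of all genes) and 0 lower (1.52% of all genes). Their median was 0.169 before the correction and 0.0288 after it. EIF4EBP1 was then at 0.24, ADM2 at 0.17, SLC43A1 at 0.13, DDIT4 at 0.03, SLC38A1 at -0.29 and KLHL24 at -0.62. SDF2L1 was at -0.01 and PDIA4 at 0.45.

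Markers of other cells were low in both EnzaR groups. The 8 markers of the basal list summed to 15 to 18 CPM in siYAP1 libraries and 23 to 26.1 CPM in siNC libraries, with 2 of them (KRT5 and TP63) at 0, and KRT7 and EPHA2 fell. The 7 immune and stromal markers measured summed to 28.1 to 31.1 CPM in siYAP1 and 27.9 to 31.5 CPM in siNC libraries.

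In the comparison of 4 EnzaR with 4 LNCaP libraries, EPRS1, SLC1A4 and IARS1 were the members most increased in EnzaR cells, and DDIT3 and SESN2 were those most decreased. Line, drug in the medium and culture cannot be told apart, and differences between treatments of a line were left in the spread. Of the 44 members 17 were higher and 14 lower in EnzaR libraries (edgeR adjusted p under 0.05), which is 38.6% and 31.8% beside 36.2% and 36.4% of all 15640 genes tested. The 31 members that differed compare with 72.6% of all genes that differed in either direction, so the members differed about as often as genes in general. A difference of 2-fold or more was found in 6 members, against 35% of all genes tested, and the lines did not overlap in 28 members, against 66.2% of all genes tested. The luminal markers summed to 4340 to 4740 CPM in EnzaR and 3290 to 3660 CPM in LNCaP libraries. The basal list summed to 15 to 26.1 CPM in EnzaR and 290 to 310 CPM in LNCaP libraries, almost all of it VIM in LNCaP cells. The stromal list summed to 27.9 to 31.5 CPM in EnzaR and 108 to 121 CPM in LNCaP libraries, most of it COL1A1. The part of these marker differences in the values of members was not tested.

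Of the 8 transcription factors 1 was higher and 6 lower in EnzaR cells, one of the 6, JDP2, being at 0.04 after the correction for GC content. ATF4 was at 543 and 501 CPM in siYAP1 and 405 and 435 CPM in siNC libraries of EnzaR cells. In LNCaP cells it was at 694 CPM in EV-siYAP1, 669 CPM in EV-siCII, 731 CPM in EV-siNC and 776 CPM in control. All EnzaR libraries were below all LNCaP libraries, by a log2 fold change of -0.61 (SE 0.0979, edgeR adjusted p = 2.87e-05). DDIT3 was at 7.98 to 12.1 CPM in EnzaR and 22.5 to 29.7 CPM in LNCaP libraries, the largest fall among members at -1.32 (SE 0.147, edgeR adjusted p = 4.22e-07), with the limit from MARS1 given above. ATF5 was the factor that was higher, at 75.1 to 92 CPM in EnzaR and 32.1 to 54.7 CPM in LNCaP libraries (log2 fold change 0.92, SE 0.128, edgeR adjusted p = 6.07e-06), and its reads are uncertain where it overlaps NUP62. Of 5 effectors 0 were higher and 3 lower, among them SESN2 at 56.3 to 77 CPM in EnzaR and 117 to 143 CPM in LNCaP libraries (log2 fold change -0.93, SE 0.106, edgeR adjusted p = 5.56e-07). The others were VLDLR (-0.87) and STC2 (-0.48), while CHAC1 averaged 30.6 ± 9.95 CPM in EnzaR and 31.3 ± 1.87 CPM in LNCaP libraries (SD, n = 4 each) and did not pass. The EnzaR mean of CHAC1 pools siYAP1 libraries at 37.5 and 40.3 CPM with siNC libraries at 19.5 and 25.1 CPM. LNCaP libraries, at 28.7 to 33.3 CPM, lay between these groups.

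Of the 7 transporters 5 were higher and 1, SLC7A5 (-0.51), was lower in EnzaR cells, and of the 10 synthetase and tRNA export genes 5 were higher and 1 lower. All genes tested had 36.2% higher and 36.4% lower, and the difference of these lists from all genes was not tested. SLC1A4 was at 21.9 to 32.4 CPM in EnzaR and 10.1 to 11.3 CPM in LNCaP libraries (log2 fold change 1.36, SE 0.145, edgeR adjusted p = 2.24e-07). SLC7A11 was at 34 to 44.3 CPM in EnzaR and 11.3 to 20.5 CPM in LNCaP libraries (log2 fold change 1.12, SE 0.154, edgeR adjusted p = 5.05e-06). EPRS1 had the largest rise of the members, with 137 and 159 CPM in siYAP1 and 153 and 214 CPM in siNC libraries. In LNCaP cells it was at 61.3 CPM in EV-siYAP1, 59.7 CPM in EV-siCII, 60.4 CPM in EV-siNC and 48.5 CPM in control, so the lines did not overlap (log2 fold change 1.53, SE 0.124, edgeR adjusted p = 7.94e-09). IARS1 was at 164 to 218 CPM in EnzaR and 67.9 to 84.4 CPM in LNCaP libraries (log2 fold change 1.30, SE 0.0996, edgeR adjusted p = 3.79e-09). AARS1 went the other way, at 540 to 644 CPM in EnzaR and 933 to 1020 CPM in LNCaP libraries (log2 fold change -0.70), with no overlap. MTHFD2 was at 112 to 124 CPM in EnzaR and 52.3 to 62 CPM in LNCaP libraries (log2 fold change 1.03, SE 0.0851, edgeR adjusted p = 9.5e-09). PHGDH (0.57), ALDH18A1 (0.59), PYCR1 (0.62) and ASNS (0.87) were also higher. SHMT2 (-0.55) and PCK2 (-0.59) were lower, SHMT2 with the limit from NDUFA4L2 given above.

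Among genes outside the 44, 10 of 11 other cytosolic synthetases were higher in EnzaR cells, with a median log2 fold change of 1.19, and 11 of 17 mitochondrial synthetases, with a median of 0.558. Of the 11 genes of the eIF2 machinery 9 were higher and 1 lower. The median over all genes tested was -0.00784, and over the members 0.172. With the siNC libraries set against the LNCaP control library only, the median was 0.015 over all genes and 0.0241 over the members, a gap of 0.0091 in place of 0.18, with 18 members higher and 14 lower. ATF5 was then at 0.50 and SLC7A11 at 1.62. After the correction for GC content and length the median of all genes was -0.133 and that of the members 0.0689. Of the 31 members that passed, 2 then changed sign: PSAT1, at 0.51 before and -0.43 after it, and JDP2, at -0.43 before and 0.04 after it. EPRS1 was at 0.88, SLC1A4 at 1.57, SLC7A11 at 0.79, DDIT3 at -1.88 and ATF4 at -0.80 after it.

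**Figure D4:**
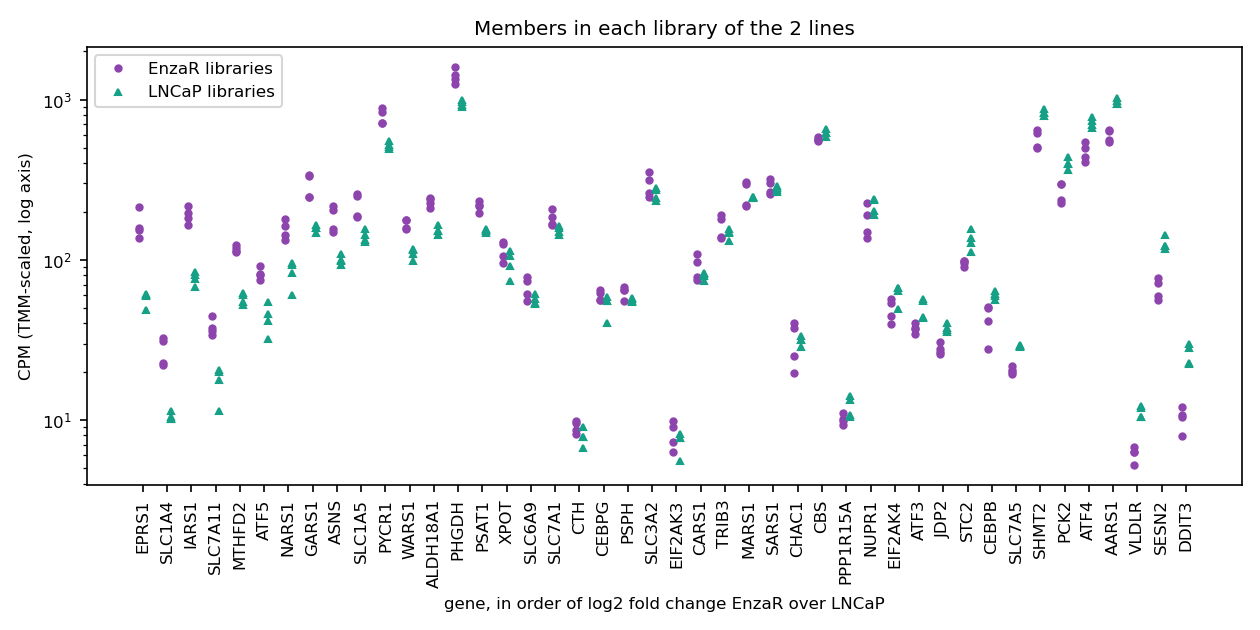
CPM on a log axis of each member in the 4 EnzaR libraries (circles) and the 4 LNCaP libraries (triangles), with genes in order of the log2 fold change, EnzaR over LNCaP. EPRS1 at the left end is 1.53 higher and DDIT3 at the right end is 1.32 lower in EnzaR on the log2 scale; in the middle the lines overlap.

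The comparisons in LNCaP cells asked what vesicles of resistant cells, and of such cells depleted of YAP1 or COUP-TFII, do to the cells labelled LNCaP. With 1 library a group there is no replicate check and no test was made, and the intervals given are exact 95% limits for counting error only. Ratios are on the log2 scale of TMM-scaled CPM with a prior count of 2, over the 8863 genes with a mean of 10 CPM in LNCaP libraries, which hold 42 members (EIF2AK3 and CTH are under it). A member was counted where one library was at least 25% above the other. For scale, replicates of one EnzaR group differed by that much in 9.31% (siYAP1) and 8.63% (siNC) of genes, and in 1 and 3 of 39 members.

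In the library of cells given EV-siNC, against control, 8 of 42 members were at least 25% higher (12.9% of all genes) and 1 lower (3.55% of all genes). ATF4 itself was at 759 CPM in the EV-siNC library, against 796 CPM in the control library (log2 ratio -0.07, interval -0.10 to -0.03). SLC7A11, the cystine importer, had the largest ratio, at 20.8 CPM in EV-siNC against 11.6 CPM in control (0.83, interval 0.58 to 1.09). All 3 libraries of LNCaP cells given vesicles were above control for this gene, with 21.3 CPM in EV-siYAP1 and 18.4 CPM in EV-siCII. NARS1 was at 96.3 CPM in EV-siNC and 62.1 CPM in control (0.63, interval 0.52 to 0.74). XPOT was at 117 CPM in EV-siNC and 75.5 CPM in control (0.63, interval 0.53 to 0.73). NARS1, XPOT and EIF2AK4 are also the 3 members that fell in siYAP1 libraries of EnzaR cells. All 3 have a GC content under 45%. With the correction for GC content and length their log2 fold changes in EnzaR cells were -0.16, -0.02 and -0.08, and none passed. CEBPG (0.47), EIF2AK4 (0.45), DDIT3 (0.34), EPRS1 (0.34) and IARS1 (0.33) were the others, and ATF5 was lower, at 42.8 CPM in EV-siNC against 56.1 CPM in control (-0.39, interval -0.53 to -0.25).

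These ratios too went with GC content, in the direction opposite to that in EnzaR cells. Spearman's rho was -0.699 over the 42 members and -0.538 over 8761 genes. Of the 8 members counted as higher, 7 were among the 8 with a GC content under 45% that reached the floor. With the correction for GC content and length 3 members were counted as higher and 0 as lower, beside 4.11% and 3.98% of all genes. These were NARS1 (0.48), DDIT3 (0.46) and SLC7A11 (0.39), while XPOT was at 0.28, CEBPG at 0.20 and EIF2AK4 at 0.18. The part of GC content in the uncorrected ratios was not tested. The median over the 42 members was 0.012 without the correction.

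The 2 other vesicle libraries share the control library with EV-siNC, so their ratios are given side by side and not counted as a repeat. Over control, EV-siYAP1 had 7 members higher (15.5% of all genes) and 3 lower (9.2% of all genes), and EV-siCII had 4 higher (9.94% of all genes) and 1 lower (3.9% of all genes). With the correction for GC content and length EV-siYAP1 had 5 higher (7.81% of all genes) and 1 lower (8.42% of all genes), and EV-siCII 1 higher (3.01% of all genes) and 0 lower (4.11% of all genes). Spearman's rho of the uncorrected ratios with GC content over the 42 members was -0.531 for EV-siYAP1 and -0.648 for EV-siCII. SLC7A11 had ratios of 0.86 in EV-siYAP1, 0.65 in EV-siCII and 0.83 in EV-siNC over control, and corrected ratios of 0.36 in EV-siYAP1, 0.30 in EV-siCII and 0.39 in EV-siNC. NARS1 had 0.67 in EV-siYAP1, 0.46 in EV-siCII and 0.63 in EV-siNC. CEBPG lay close together, at 0.55 in EV-siYAP1, 0.46 in EV-siCII and 0.47 in EV-siNC, and was at 0.24 in EV-siYAP1, 0.26 in EV-siCII and 0.20 in EV-siNC with the correction. ATF5 was lower in all 3, at -0.75 in EV-siYAP1, -0.24 in EV-siCII and -0.39 in EV-siNC. PPP1R15A had -0.39 in EV-siYAP1, -0.41 in EV-siCII and -0.07 in EV-siNC.

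Against EV-siNC, vesicles of cells depleted of YAP1 gave 0 of 42 members at least 25% higher (3.43% of all genes) and 2 lower (3.68% of all genes). The correction for GC content and length gave 0 members higher (3.19% of all genes) and 3 lower (3.77% of all genes). The values that follow are without it. ATF3, a stress-induced factor, was at 44.8 CPM in EV-siYAP1 and 59.3 CPM in EV-siNC (log2 ratio -0.40, interval -0.54 to -0.27). ATF5 was at 33.4 CPM in EV-siYAP1 and 42.8 CPM in EV-siNC (-0.36, interval -0.52 to -0.20). PPP1R15A (-0.32) and STC2 (-0.29) had the next largest ratios, and on the other side PCK2 (0.27) and SESN2 (0.23). The 2 members counted without the correction stand beside the 1 and 3 of 39 that differed between replicates of EnzaR cells. Of the 16 members that rose on YAP1 depletion in EnzaR cells, all lay between -0.23 and 0.27 here. PCK2 (interval 0.22 to 0.32) and SESN2 (interval 0.15 to 0.31) had positive ratios, and NUPR1 (-0.23, interval -0.29 to -0.16) and SLC3A2 (-0.23, interval -0.29 to -0.17) negative ones. The other 12 lay between -0.13 (ASNS) and 0.11 (SLC1A5), with CHAC1 at 0.08 and ATF4 at -0.08.

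Vesicles of cells depleted of COUP-TFII gave 0 of 42 members at least 25% higher (1.76% of all genes) and 4 lower (2.82% of all genes) than EV-siNC. STC2 was at 115 CPM in EV-siCII and 162 CPM in EV-siNC (log2 ratio -0.49, interval -0.57 to -0.41). ATF3 was at 45.8 CPM in EV-siCII and 59.3 CPM in EV-siNC (-0.37, interval -0.51 to -0.24). PPP1R15A, at 10.9 CPM in EV-siCII and 13.8 CPM in EV-siNC, had -0.35 (interval -0.63 to -0.07). DDIT3, at 23.3 CPM in EV-siCII and 29.3 CPM in EV-siNC, had -0.33 (interval -0.52 to -0.15). Just inside the limit lay NUPR1 (-0.32) and XPOT (-0.31). The median over the members was -0.0959, with 10 of 42 ratios positive, and 51.8% of all genes had a positive ratio. With the correction for GC content 0 members were counted as higher (1.92% of all genes) and 4 as lower (2.2% of all genes), and the median was -0.0924.

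EV-siYAP1 set against EV-siCII had 1 member higher (3.97% of all genes) and 1 lower (2.62% of all genes). DDIT3 was at 30.8 CPM in EV-siYAP1 and 23.3 CPM in EV-siCII (log2 ratio 0.40, interval 0.22 to 0.59). ATF5 was at 33.4 CPM in EV-siYAP1 and 47.6 CPM in EV-siCII (-0.51, interval -0.67 to -0.36). SESN2 (0.29) and SLC1A5 (0.27) followed, inside the limit.

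**Figure D5:**
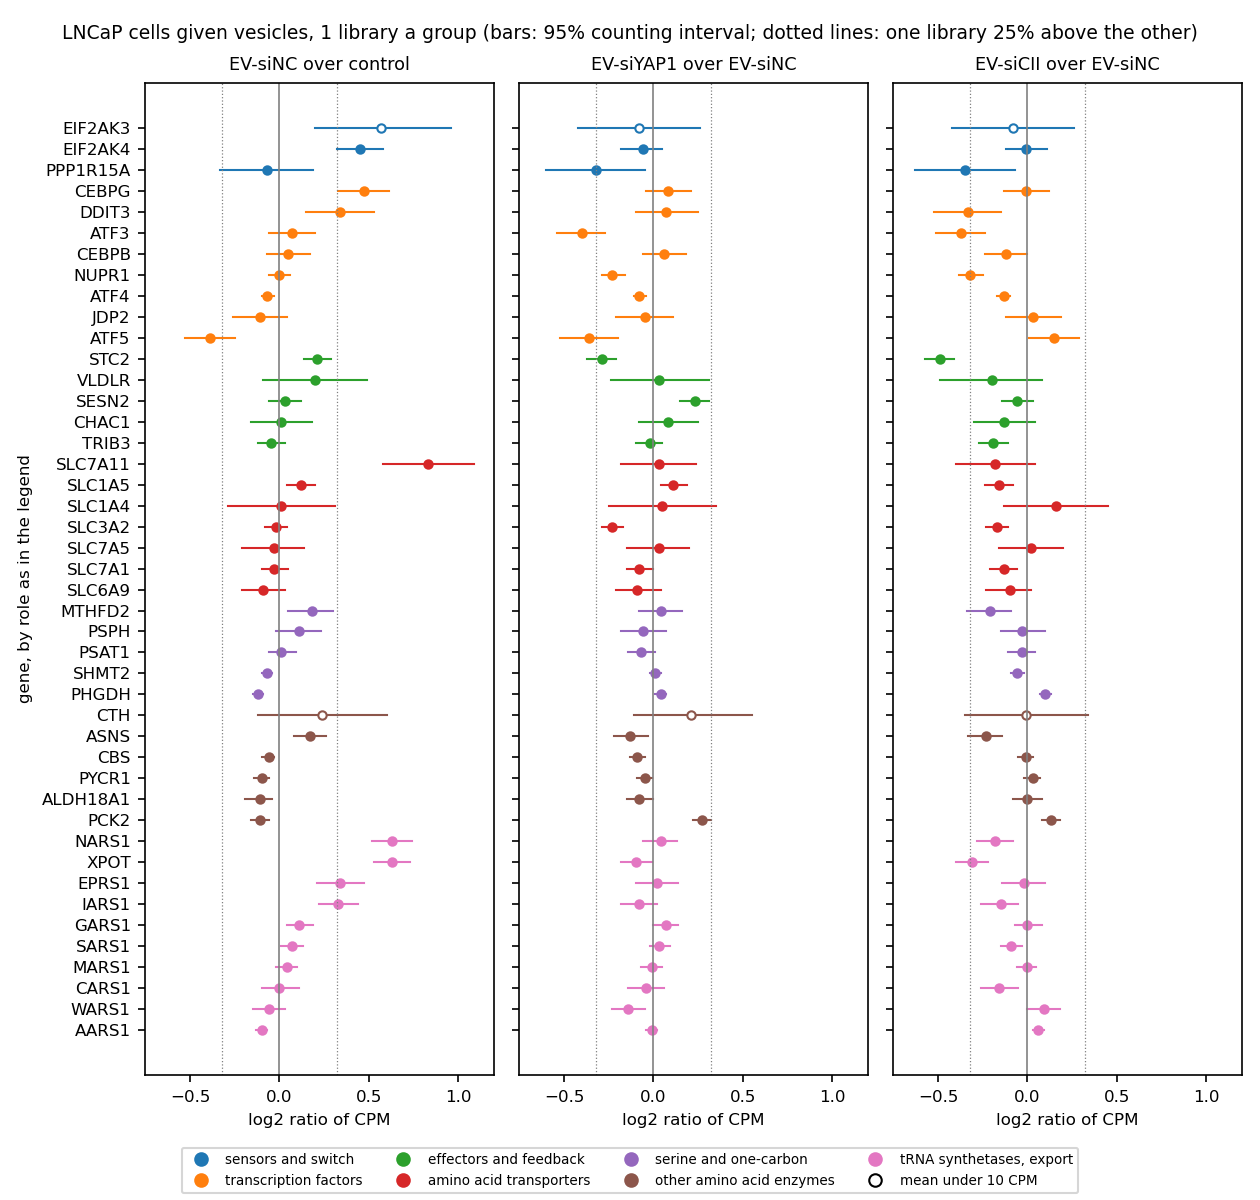
Log2 ratio of CPM of each member between single LNCaP libraries, EV-siNC over control (left), EV-siYAP1 over EV-siNC (middle) and EV-siCII over EV-siNC (right). Bars are 95% counting intervals, dotted lines mark one library 25% above the other and open points are under a mean of 10 CPM; SLC7A11 reaches 0.83 on the left, and STC2 reaches -0.49 on the right.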

How the data were processed

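The submitters' processing notes list, with no roles, HISAT2 2.0.1, HTSeq 0.6.1, cutadapt 1.9.1, DESeq2 and build hg19. Annotation release and strand setting: not given in the sources used here. The authors deposited 1 table with raw read counts per gene, FPKM and exonic length, of which 0 rows named no gene. The deposited FPKM equalled the count divided by length and column total for 463240 of 463240 values within 0.0051. A symbol was found through the Ensembl identifier for 51996 genes, with 99.24% of all counts.

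Counts of the EnzaR groups and of the lines were fitted in edgeR 4.0.16 (R 4.3.3) by robust quasi-likelihood without covariates, after filterByExpr and TMM. P-values were adjusted by Benjamini-Hochberg over all genes, with a threshold of 0.05, and the code was tested on simulated data. Alternatives were DESeq2 1.42.0, other scalings and filters, a replicate block, all libraries in 1 fit, libraries left out and a smooth correction for GC content and length per library (mgcv 1.9.3), where GC content was known for 97.3% of tested genes. LNCaP ratios used a prior count of 2 and a floor of 10 CPM. A count of 3 corresponds to 0.164 to 0.18 CPM, and intervals cover counting error only.

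The 44 members and the 9 further lists, with 98 of 99 entries matched, were chosen with earlier results of these data known, and so was the GC correction. Members past 0.05 in EnzaR cells, the 8 with the largest changes between the lines and the 4 with the largest ratios in each LNCaP comparison are given in full, and ATF4 always. At least 1 other gene overlaps 25 of the members, on the other strand in 22, and for 7 such a gene has over 10% of the count of the member. Some genes outside the members are not reported here by name. Among members, PSPH has a pseudogene with a mean count of 89.8.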

Additional observations from a re-analysis of the deposited data

How the results depend on the processing

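The 16 members that rose in EnzaR cells stayed positive and the 3 that fell stayed negative under every alternative run. These 19 members had passed the test on the same libraries, and their groups did not overlap. Most alternatives could therefore hardly change a sign. The number of members higher was 8 with library totals alone and 9 with the GC and length correction. The number of members lower was 1 with DESeq2 and 0 with the GC and length correction. Over all genes, 567 were lower with DESeq2, 291 higher and 1416 lower with library totals, and 274 higher and 227 lower with the GC and length correction. Leaving out 1 replicate gave 0 to 12 members higher and 0 to 2 lower, with 15 to 940 genes higher and 11 to 829 lower, and a library left alone in its group is then assumed to vary like the other group. Same-numbered libraries deviated in opposite directions (Pearson r = -0.223 across 8842 genes). Whether they share a culture is not stated, and this single correlation cannot decide it. With the replicate block 13 members were higher and 0 lower and 564 genes were higher. With the block and the GC and length correction 8 members were higher and 0 lower, with 333 genes higher and 326 lower. A crossed pairing, chosen after seeing the data, gave 20 members and 1518 genes higher. Between the lines no count of members moved by over 1.5 times. The median of members in LNCaP cells was 0.0769 (EV-siNC over control), 0.0773 (EV-siYAP1 over control) and 0.0184 (EV-siCII over control) with library totals alone, and 0.0652 for EV-siNC over control with the GC and length correction. Where settings changed a number, the cause was not tested. Single LNCaP libraries bound what can be said of vesicles, and replicates of 2 limit the EnzaR test.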
